A study of Sus scrofa with 16 samples.

Results

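T-box genes encode transcription factors that share a DNA-binding domain, the T-box. Open chromatin was described here at 8 of them, TBX1, TBX2, TBX3, TBX4, TBX5, TBX15, TBX18 and TBX20, out of 19560 protein-coding genes (PCGs) of the RefSeq annotation of the pig assembly Sscrofa11.1. The genes were chosen by name, and the peaks were chosen by position. A peak counted as lying at a gene's locus when it overlapped the gene body or the 10 kb on either side by 1 bp or more, and as lying at its promoter when it overlapped the stretch from 2.2 kb upstream to 500 bp downstream of an annotated transcription start site.

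The study made 16 ATAC-seq libraries, in which a transposase cuts and tags accessible DNA, from domestic crossbred pigs, all of them female. Of the 8 groups, each with 2 libraries, 6 were tissues of newborns (heart, lung, skeletal muscle, kidney, spleen and liver). The other groups were suckling liver, at 28 days of age, and adult liver, at 180 days. The sample labels put the newborns at 0 days of age, whereas the study's methods give them as a day old. The study's methods describe full siblings of a Berkshire and Tibetan cross as the donors at each age, and tissue that was snap-frozen. Its introduction gives the muscle as the longissimus dorsi. All 6 newborn tissues came from the same 2 animals, so these lists are not independent of each other. Each pair of libraries had been merged into a single list of consensus peaks, so a count of peaks has no replicate error, and no test between tissues was made.

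The best known roles of these factors are in the embryo. TBX5 and TBX20 activate genes of heart muscle together with NKX2-5 and GATA4, whereas TBX2 and TBX3 repress the same programme in the atrioventricular canal and the conduction system. TBX18 marks the sinus horn and the epicardium, TBX1 acts in the pharynx and the outflow tract, TBX4 in the hindlimb and the lung, and TBX15 in the skeleton and in skeletal muscle. T-box proteins bind DNA at a short core site with the letters AGGTGT.

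Stretches of DNA from 5 of the 8 loci are shown first, to give the sequence behind peaks described below. These are 300 bases centred on the summit of the strongest heart peak without any overlap in the other 5 newborn lists, at the 3 genes that had such a peak, of which the TBX18 peak was weak. The strongest muscle peak of that kind at TBX15 and the strongest adult liver peak at TBX4 were added after their values were seen. All are the plus strand of Sscrofa11.1, and capitals mark matches on either strand to 5 kinds of motif. The T-box core site was searched as AGGTGT. For the GATA factors of heart and blood the letters were AGATAA, with the form TGATAA counted together with it. NKX2 factors, which include NKX2-5, were searched as TNAAGTG, where N is any base. Sites of TEAD factors were searched as GGAATG. The E-box of the kind that the muscle factor MYOD binds was searched as CAGCTG. No 2 matches overlapped.
TBX5, intron, chr14:37799881-37800180: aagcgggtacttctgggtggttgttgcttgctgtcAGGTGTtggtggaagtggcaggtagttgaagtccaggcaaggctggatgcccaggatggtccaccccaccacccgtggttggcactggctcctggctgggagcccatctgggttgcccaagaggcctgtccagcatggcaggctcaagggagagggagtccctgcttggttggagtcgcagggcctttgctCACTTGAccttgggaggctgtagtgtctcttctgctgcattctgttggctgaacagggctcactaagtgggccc
TBX20, just beyond the gene's annotated end, chr18:38681878-38682177: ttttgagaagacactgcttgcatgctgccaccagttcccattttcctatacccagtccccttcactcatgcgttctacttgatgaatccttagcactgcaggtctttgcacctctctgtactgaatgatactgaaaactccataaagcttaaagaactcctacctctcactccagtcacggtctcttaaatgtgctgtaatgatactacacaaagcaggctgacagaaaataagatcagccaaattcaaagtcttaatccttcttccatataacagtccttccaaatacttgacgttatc
TBX18, promoter, chr1:53868880-53869179: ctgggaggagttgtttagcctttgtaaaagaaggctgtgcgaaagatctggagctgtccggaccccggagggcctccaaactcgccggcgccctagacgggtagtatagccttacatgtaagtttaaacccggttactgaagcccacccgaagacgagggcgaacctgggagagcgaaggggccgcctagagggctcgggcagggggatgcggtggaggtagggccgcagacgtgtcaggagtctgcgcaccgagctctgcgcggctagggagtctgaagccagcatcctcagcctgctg
TBX15, intron beside a coding exon, chr4:101992036-101992335: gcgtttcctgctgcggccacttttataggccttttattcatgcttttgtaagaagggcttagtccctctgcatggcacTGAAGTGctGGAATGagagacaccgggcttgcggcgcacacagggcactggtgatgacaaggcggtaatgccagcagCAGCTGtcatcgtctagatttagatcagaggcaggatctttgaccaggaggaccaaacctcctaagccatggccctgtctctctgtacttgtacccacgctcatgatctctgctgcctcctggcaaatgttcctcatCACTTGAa
TBX4, intron, chr12:36804111-36804410: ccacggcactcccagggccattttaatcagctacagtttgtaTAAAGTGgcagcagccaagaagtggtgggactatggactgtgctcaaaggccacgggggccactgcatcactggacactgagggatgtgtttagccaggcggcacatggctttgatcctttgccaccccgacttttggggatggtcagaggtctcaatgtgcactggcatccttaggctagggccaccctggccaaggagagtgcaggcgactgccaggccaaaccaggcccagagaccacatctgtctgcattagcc

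The TBX5 window held 1 T-box core site, which began at base −115 from the summit, and 1 NKX2 match that began 76 bases after it. No listed motif occurred in the TBX20 and TBX18 windows. In the TBX15 window an E-box lay 5 bases after the summit, with a TEAD match at base −63, an NKX2 match at base −72 and another NKX2 match 142 bases after it. The TBX4 window held a single NKX2 match. Such short motifs are frequent: among the same windows of all heart peaks on the assembled chromosomes, 12.2% held the T-box core site, 23.5% a GATA match, 13.2% an NKX2 match, 17.9% a TEAD match and 25.6% the E-box. Of the 32 heart peaks at the T-box loci, the T-box core site was found in 5 (15.6%), NKX2 in 5, TEAD in 5, the E-box in 6 and GATA in 1. Muscle windows held the E-box in 31.5% of all peaks and in 6 of 31 at the T-box loci (19.4%). These matches are descriptions of letters and not of bound sites.

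The 8 loci lay on 5 chromosomes. TBX3 (chr14:37582704-37596767, plus strand) and TBX5 (chr14:37772205-37826015, plus strand) are neighbours, as are TBX4 (chr12:36803355-36830321, minus strand) and TBX2 (chr12:36878662-36887513, minus strand). TBX1 lies at chr14:51289376-51297110 (plus strand), TBX15 at chr4:101918891-102032280 (plus strand), TBX18 at chr1:53836939-53867460 (minus strand) and TBX20 at chr18:38635603-38681690 (plus strand). With their flanks they spanned between 27.7 kb (TBX1) and 133 kb (TBX15). The TBX4 model holds no bases before its coding start, so its annotated promoter may not mark where transcription begins. Part of the TBX2 flanks belongs to C12H17orf82, LOC110256170 and BCAS3, and part of the TBX4 flank to LOC106505461, and peaks there could belong to either gene. The TBX1 flank reaches GNB1L, whose gene body and promoter no peak at the TBX1 locus overlapped. Promoters of the 8 genes were rich in G and C, with a median of 57.6% against 50.1% over 19556 PCGs, and their observed to expected CpG ratio was 0.655 at the median against 0.481.

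Heart had 32 consensus peaks at the 8 loci, which was 4.39 per 10000 peaks of its list (Wilson 95% confidence interval 3.11 to 6.19, counting error only). Muscle had 31 peaks and the highest share, 5.43 per 10000 (3.82 to 7.70), but 24 of the 31 lay at TBX15. At the other 7 loci the muscle share was 1.23 (7 peaks, 0.594 to 2.53) and the heart share 4.25 (31 peaks, 2.995 to 6.03), and the median number of peaks per gene over all 8 was 1 in muscle and 3.5 in heart. The shares were 3.35 in lung (27 peaks), 2.93 in kidney (39 peaks), 2.42 in newborn liver (29 peaks) and 1.78 in spleen (15 peaks). Relative to a list spread evenly over the chromosomes, the loci held 2.91 times as many peaks per Mb in muscle, 2.35 times as many in heart and 0.951 times as many in spleen. An even spread is not a background of genes. In peaks per 100 kb of locus, the median of the 8 genes was 8.36 in heart, against 4.64 over all PCGs. In lung it was 5.52 against 5.34, and in kidney it was also slightly higher. The median was lower than that of all PCGs in muscle (2.98 against 3.68), spleen (3.32 against 5.64), newborn liver (4.38 against 8.61) and both later liver stages. The share of the heart list was 2.47 times that of spleen (1.34 to 4.56) and 1.82 times that of liver (1.10 to 3.0). Against kidney the ratio was 1.5 (0.940 to 2.39), against lung 1.31 (0.786 to 2.19) and against muscle 0.809 (0.494 to 1.33), and these intervals include equality. In a tissue sampled whole, fewer cells of a type and less open chromatin per cell cannot be told apart.

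**Figure D1:**
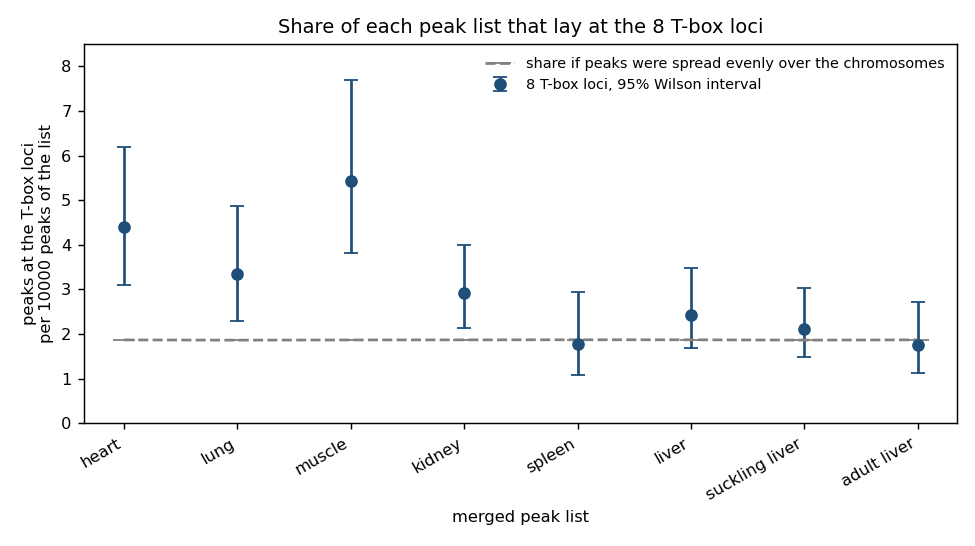
Peaks at the 8 T-box loci per 10000 peaks of each merged list (y axis) for the 8 lists (x axis), with bars for the Wilson 95% interval of counting error. The dashed line is the share of an even spread over the chromosomes and not a background of genes. Heart (4.39) and muscle (5.43) lie farthest above it while spleen (1.78) and adult liver (1.74) lie just under it.

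Most heart peaks at these loci were weak. The irreproducible discovery rate (IDR), which is low when both replicates place a peak high and at a similar rank, was 0.05 or lower for 1 of the 32 (3.1%), against 19.9% of the whole heart list, and the 1 peak was the TBX3 promoter. With every list held to that limit the ratio of heart to spleen was 0.376, the other way round, on 1 heart peak and 4 spleen peaks. At an IDR of 0.01 or lower it was 1.597, on 1 peak each. No heart-only peak remained at either limit. In muscle 10 of 31 passed (32.3%, against 29.9% of the list), in adult liver 8 of 19 (42.1%, against 50.4%), in kidney 7 of 39 (17.9%, against 33.9%), in suckling liver 5 of 30 (16.7%, against 33.8%) and in spleen 4 of 15 (26.7%, against 25.9%). In lung 1 of 27 passed (3.70%, against 20.5%) and in newborn liver 1 of 29 (3.45%, against 19.2%), low shares like that of heart. The median of the smaller replicate's −log10 p was 5.62 at the T-box loci and 7.08 over the heart list, while in muscle it was 12.6 and 8.15. A −log10 p depends on depth, which the lists do not carry, so where peaks of different lists are set side by side their percentiles within their own lists are given too.

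**Figure D2:**
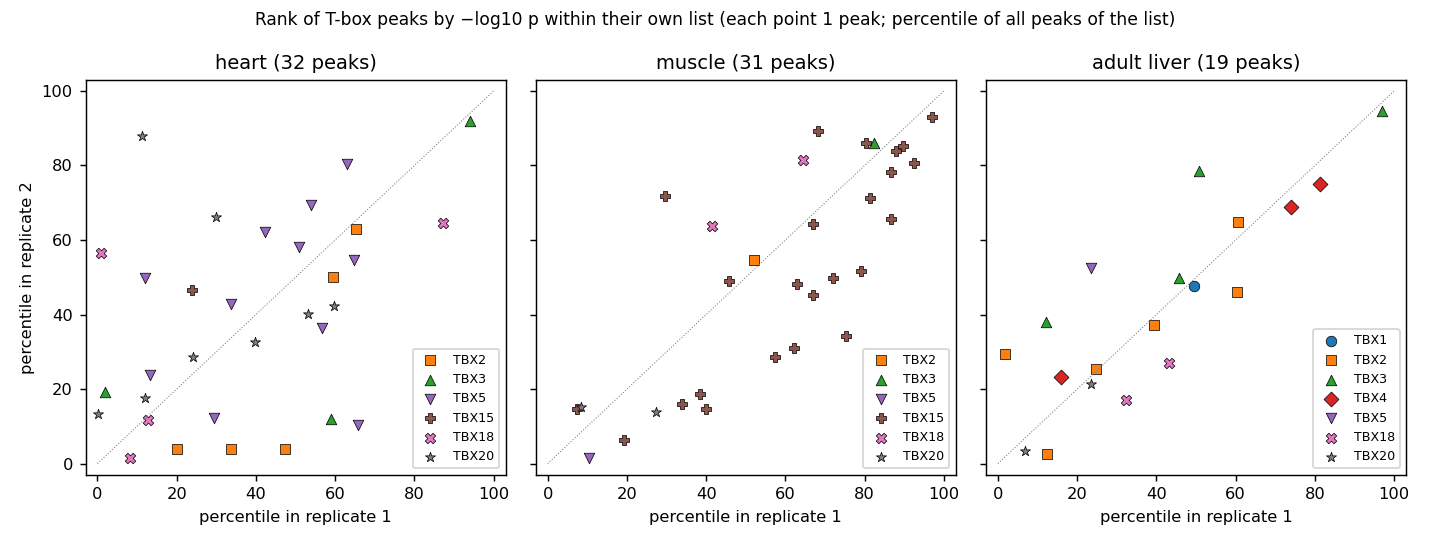
Each point is 1 peak at a T-box locus, placed by its percentile among all peaks of its own list by −log10 p in replicate 1 (x axis) and replicate 2 (y axis), for heart, muscle and adult liver. The TBX3 promoter peak stands at percentiles 94.1 and 91.8 in heart, where the other 31 peaks lie lower in both replicates, and the strongest TBX15 peak stands at 97.0 and 92.9 in muscle.

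The peaks of all lists formed 97 separate regions, of which 56 appeared in 1 newborn list, 26 in 2 to 5, 6 in all 6 newborn lists and 9 in suckling or adult liver alone. Regions of a single newborn tissue were most often from muscle (22, of which 21 at TBX15), kidney (13) and heart (10). Peaks in no other newborn list made up 71.0% of the muscle peaks at the loci, against 22.1% of the muscle list. In kidney they made up 33.3%, near the 34.6% of its list, and in heart 34.4%, against 17.4%. By position, 36 of the 97 regions were intronic, 18 lay at promoters, 7 in exons, 19 upstream and 17 downstream of the gene. The genes differed in where their peaks were found, as the plot of counts by gene and list shows. TBX5 and TBX20 had most peaks in heart, TBX15 in muscle, TBX1 and TBX2 in newborn liver, and TBX3 and TBX18 in kidney, the longest newborn list. TBX4 had 4 peaks in both kidney and suckling liver, its highest count.

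**Figure D3:**
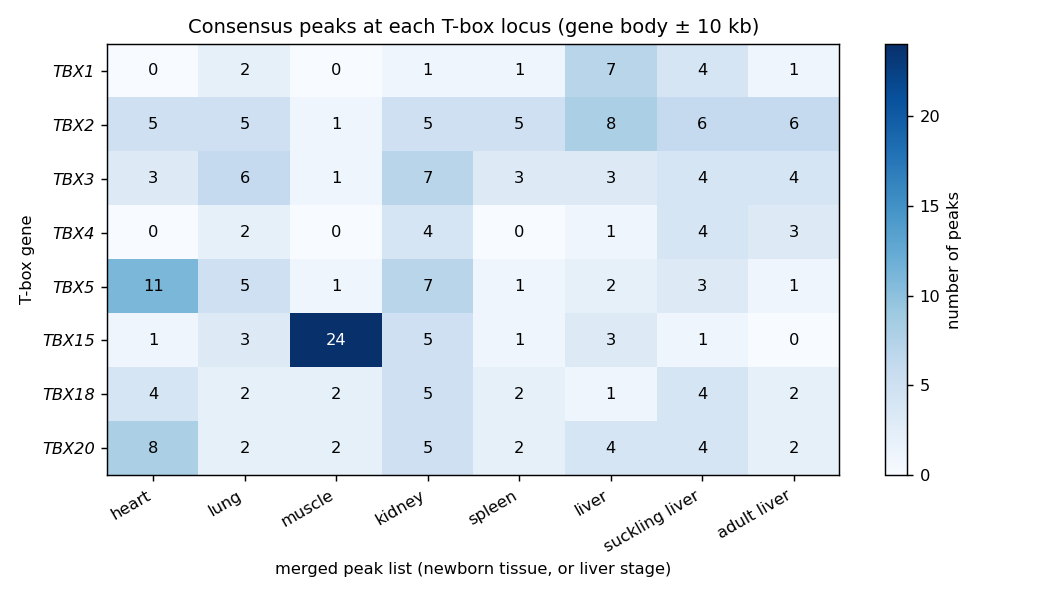
Number of consensus peaks at each T-box locus (rows) in each merged list (columns), with darker cells for larger counts. The 24 TBX15 peaks in muscle and the 11 TBX5 and 8 TBX20 peaks in heart stand out, and TBX1 and TBX4 have 0 in heart and muscle.

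Heart peaks were compared gene by gene after dividing by the length of each list. Heart had the largest share of the 6 newborn lists at 4 of the 8 genes, TBX2, TBX5, TBX18 and TBX20, against 12.8% of all PCGs. That number was 2, TBX5 and TBX20, with lists of equal length, also when their peaks were ranked by replicate 2 alone. It was 3 when they were ranked by replicate 1 alone. In equal lists the heart peaks fell from 5 to 2 at TBX2, from 4 to 1 at TBX18 and from 8 to 5 at TBX20. With an IDR of 0.05 or lower heart had the largest share at TBX3 alone. There each newborn list then had 1 peak, the shared promoter, so the larger share reflects only the shorter heart list (14523 peaks at that limit). Its share over whole lists was larger than that of spleen at 6 genes (background 47.8% of PCGs), of muscle at 5 (background 37.9%), of newborn liver at 5 (background 44.8%), of lung at 4 (background 50.1%) and of kidney at 4 (background 51.9%). TBX1 and TBX4 had no heart peak, as did 15.2% of PCGs. Muscle had the largest share at TBX15 alone, against 24.6% of PCGs.

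Of the 32 heart peaks, 11 (34.4%) overlapped no other newborn list, against 17.4% of the whole heart list. They are called heart-only below, and 5 lay at TBX5, 4 at TBX20 and 2 at TBX18. Thus 3 of the 8 genes had a heart-only peak, against 23.9% of PCGs. Peaks of kidney alone were listed at 7 of the 8 genes (background 54.9%) and of newborn liver alone at 2 (background 53.9%). Each of the 3 genes with a heart-only peak also had one at its promoter, where the background was 1.74% of PCGs. All annotated start sites were counted for this, and the TBX5 one was not at the first start site of the gene. None of the 11 had an IDR of 0.05 or lower, and the lowest was 0.0867. Overlap with heart was least for muscle, which shared 7 of the 32 heart peaks (21.9%), and greatest for kidney, which shared 15 (46.9%). Muscle was the shortest newborn list (57126 peaks) and kidney the longest (133254). The same overlaps were not counted over the whole heart list, so this order cannot be told apart from list length.

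A promoter peak was listed in heart for 5 of the 8 genes (68% of all PCGs), TBX2, TBX3, TBX5, TBX18 and TBX20. The number was 6 in lung (background 70.6%), 4 in muscle (background 61.5%), 7 in kidney (background 75.2%), 4 in spleen (background 68.9%) and 6 in newborn liver (background 73.7%). TBX3, TBX18 and TBX20 had one in all 8 lists, and the other 5 genes did not.

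TBX5, the activator of the cardiac programme that is also needed for the forelimb, had 11 peaks in heart, 7 in kidney, 5 in lung, 2 in newborn liver and 1 each in muscle and spleen, with 3 in suckling and 1 in adult liver. Heart had more than any other list. At least 11 heart peaks were listed at 5.4% of PCGs. The strongest heart-only peak (chr14:37799523-37800282, 760 bp) lay in an intron 24.01 kb downstream of the nearest start site, with a −log10 p of 12.7 in replicate 1 and 23.9 in replicate 2 (IDR 0.0867). It is the peak whose window is printed above, and it held the T-box core site.

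TBX5 has 5 annotated start sites, and a heart-only peak (chr14:37775853-37776443) covered one of them, its summit at −68 bp, with −log10 p of 10.2 and 16.1 (IDR 0.136). Another pair of heart-only peaks lay side by side upstream, with summits at −7.65 kb (9.56 and 11.9) and −8.23 kb (6.18 and 5.17), and the fifth lay 56.6 kb downstream of a start site (10.9 and 7.74), past the end of the gene. Other lists held a TBX5 promoter peak where heart had none. A region at about −1.2 kb of the first start site was listed in lung, kidney, newborn liver and suckling liver and was missing from heart. Lung shared 2 promoter peaks with heart at other start sites, where heart had −log10 p of 13.8 and 4.93 at one and 4.62 and 9.95 at the other.

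In the TBX5 introns heart shared 2 regions with kidney, one at chr14:37806034-37806589 (13.3 and 11.02 in heart) and a weaker one at chr14:37783106-37783679 (4.73 and 6.25 in heart). It shared another intronic peak with muscle (chr14:37807668-37807984, 7.88 and 13.1 in heart at percentiles 42.2 and 62.2, 4.58 and 3.83 in muscle at percentiles 10.5 and 1.596), and a peak over an exon with lung (6.67 and 8.72 in heart). The one shared with muscle was the single TBX5 peak of that list. An intronic region near 10.9 kb was listed in lung, spleen, newborn liver and adult liver but not in heart, and its spleen peak (12.996 and 24.6) was the only TBX5 peak of any list with an IDR of 0.05 or lower (0.0355).

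TBX20, which heart muscle needs to grow and to keep its identity, had 8 peaks in heart, 5 in kidney, 4 each in newborn and suckling liver and 2 in each of the other 4 lists. At least 8 heart peaks were listed at 9.57% of PCGs, a mark set after the values were seen that TBX5 and TBX20 both passed. The strongest heart-only peak (chr18:38681805-38682624, 820 bp) began just after the gene's annotated end, 46.4 kb from the start site, with −log10 p of 11.8 and 8.62 (IDR 0.239). A heart-only promoter peak (chr18:38634668-38635144) had 7.52 and 7.34 with its summit at −821 bp, and the remaining 2 heart-only peaks were weaker (4.596 and 5.66 in an intron, 3.27 and 5.31 upstream).

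The start site of TBX20 was covered by a region that all 8 lists held. Its heart peak differed between the replicates, with a −log10 p of 4.52 in replicate 1, at percentile 11.14 of the list, and of 34.7 in replicate 2, at percentile 87.9 (IDR 0.506). A second region, with summits between −7.24 and −7.71 kb, was listed in all 6 newborn tissues and suckling liver and was missing from adult liver, and it had an IDR of 0.05 or lower in kidney (0.0353) and suckling liver (0.0175). The heart peak there had 6.25 and 14.7 (IDR 0.410).

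**Figure D4:**
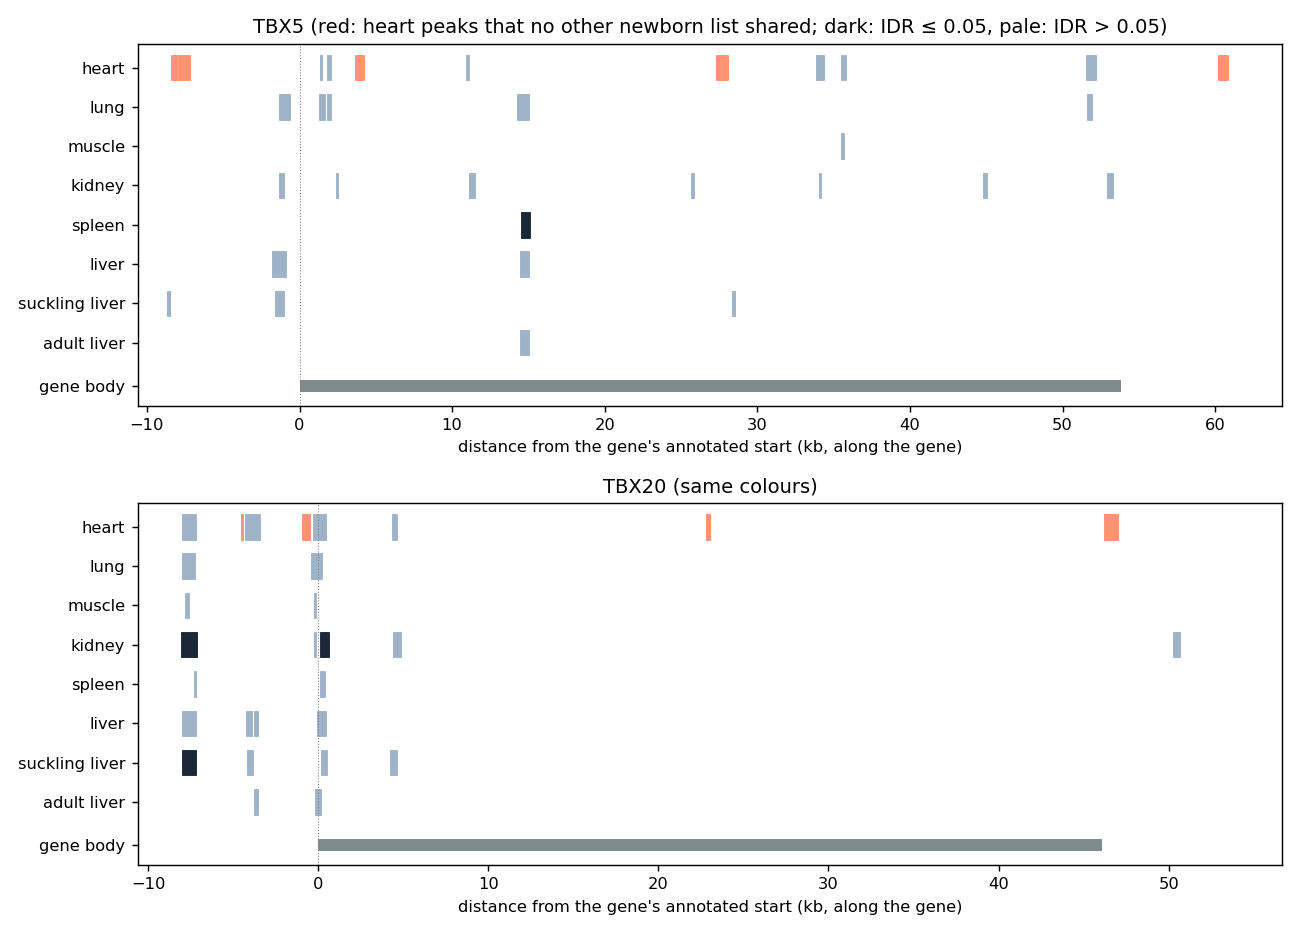
Peaks of the 8 lists (rows) along TBX5 (top) and TBX20 (bottom), drawn to scale in kb from the first annotated base of the gene (x axis), with the gene body as a bar. Red marks heart peaks without overlap in another newborn list and dark shades an IDR of 0.05 or lower. The 5 red TBX5 peaks and 4 red TBX20 peaks are all pale, and 1 TBX5 peak, in spleen, is dark.

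TBX18, a factor of the epicardium and the sinus horn, had 4 heart peaks, against 5 in kidney, 4 in suckling liver, 2 each in lung, muscle, spleen and adult liver and 1 in newborn liver. Its start site lay in a wide region present in all 8 lists. In heart that peak (chr1:53866412-53867864, 1453 bp) had −log10 p of 31.7 and 13.9, at percentiles 87.3 and 64.5 (IDR 0.115), and was the strongest TBX18 peak of the heart list. The 2 heart-only peaks had their summits at −1.57 and −1.93 kb within the promoter and were weak, with 4.68 and 5.12 at the first and 4.34 and 3.80 at the second, at percentiles from 1.52 to 12.7 and both with an IDR of 0.686. A suckling liver peak overlapped both. Of 5 other markers of epicardium and mesothelium, the membranes that cover the heart and line body cavities, promoter peaks were listed for 4 in heart (WT1, TCF21, ALDH1A2 and UPK3B but not BNC1), 5 in lung, 5 in kidney, 4 in newborn liver, 3 in spleen and 0 in muscle. The backgrounds in that order were 68%, 70.6%, 75.2%, 73.7%, 68.9% and 61.5% of PCGs. WT1 also had a heart-only peak at its promoter (background 1.74%). Its whole locus held 2 heart-only peaks, but also 6 of spleen alone, 4 of kidney alone and 2 of muscle alone. Of the 5 markers, a heart-only peak at the locus was listed for 1 (background 23.9%). One of kidney alone was listed for 3 (background 54.9%), and one of spleen alone for 3, for which no background was counted. The part of such cells in the TBX18 peaks was not tested.

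TBX2 and TBX3 repress the heart muscle programme that TBX5 and TBX20 activate. TBX2 had 5 peaks each in heart, lung, kidney and spleen, 1 in muscle and 8 in newborn liver, with 6 at both later liver stages. None of its heart peaks was heart-only. Its promoter peak, which also lies at LOC110256170, was listed in every list but muscle, and in heart it was strong in neither replicate (8.84 and 4.13, at percentiles 47.3 and 3.88, IDR 0.686). In kidney it had 22.5 and 27.3, at percentiles 86.2 and 82.4 (IDR 0.00391), and in spleen 25.5 and 34.5, at percentiles 82.1 and 75.5 (IDR 0.0145). The strongest TBX2 peak of the heart list (chr12:36874949-36875855, 13.6 and 13.4, IDR 0.0785) was shared by all 8 lists and overlapped the gene C12H17orf82, so it cannot be assigned to TBX2.

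TBX3 had 3 peaks in heart, 7 in kidney, 6 in lung, 3 each in spleen and newborn liver, 1 in muscle and 4 at each later liver stage. Its promoter region (heart peak chr14:37582019-37583698, 1680 bp) was the only one of the 97 that was present in all 8 lists with an IDR of 0.01 or lower in each. In heart it had −log10 p of 51.2 and 44.0, at percentiles 94.1 and 91.8. In muscle, where it was the only TBX3 peak, it had 34.2 and 48.0, at percentiles 82.4 and 85.996. In heart the 2 other TBX3 peaks lay about 15.3 and 16.3 kb downstream of the start, in a region that every list except muscle held (11.5 and 5.15 at one, 3.68 and 5.89 at the other).

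TBX15, known from skeletal muscle fibres and the skeleton, had most of its peaks in muscle. That list had 24 peaks at its locus, kidney 5, lung and newborn liver 3 each, heart, spleen and suckling liver 1 each and adult liver 0. Of the muscle peaks, 21 overlapped no other newborn list. Muscle-only peaks were listed at 2 of the 8 genes, TBX15 and TBX18, against 25.2% of PCGs, but 20 or more of them at a single locus were listed at only 0.0562% of PCGs, 11 genes in all, a mark set after the values were seen. TBX15 has the longest locus of the 8, at 133 kb, and peaks covered 10.4% of it in muscle and 0.64997% in heart.

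The smaller −log10 p of the TBX15 peaks in muscle ranged from 4.41 to 72.3 with a median of 13.8, against 8.15 over the muscle list, and 8 of the 24 had an IDR of 0.05 or lower, 7 of them muscle-only. The strongest (chr4:101991615-101992604, 990 bp) had 88.6 and 72.3 (IDR 0.00391) and overlapped a coding exon 73.3 kb downstream of the start site. The next by the smaller value were the intronic peaks at chr4:101929811-101930295 (51.3 and 46.5, IDR 0.00418) and chr4:101943466-101944676 (46.3 and 43.8, IDR 0.00480). Another (chr4:102018887-102019277, 61.5 and 38.0, IDR 0.00975) overlapped an exon. At the start site itself the muscle-only peak was weak (4.41 and 6.01), and the single heart peak (chr4:101919959-101920825, 5.59 and 9.32, IDR 0.686) lay 1.49 kb downstream of it in a region that all 6 newborn lists held.

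**Figure D5:**
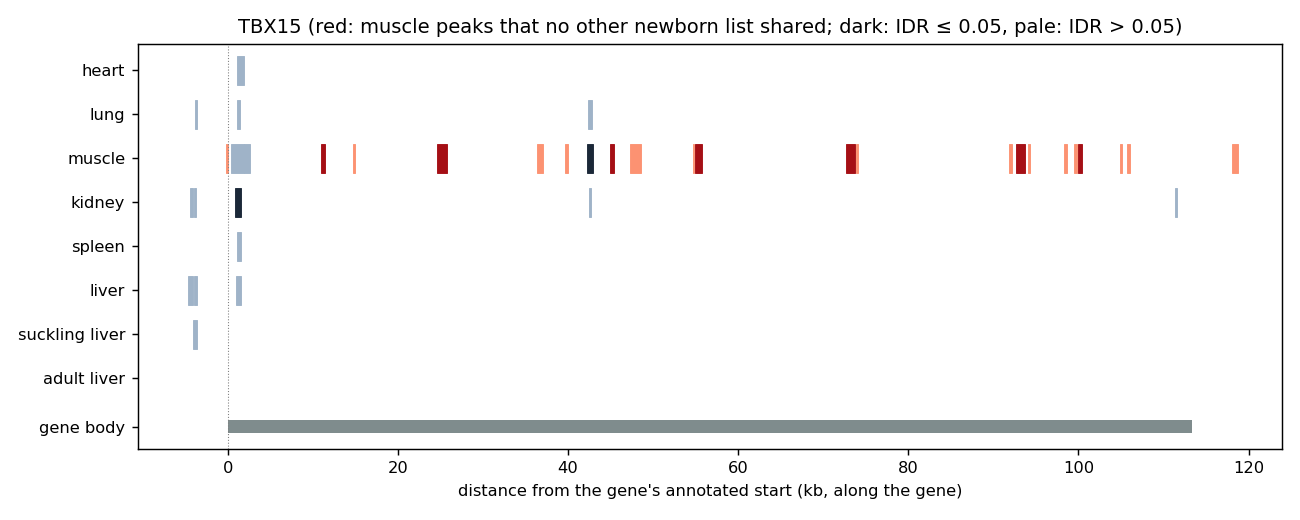
Peaks of the 8 lists (rows) along TBX15, drawn to scale in kb from the annotated start (x axis), with the gene body as a bar. Red marks muscle peaks without overlap in another newborn list and dark shades an IDR of 0.05 or lower, so the 21 red peaks, 7 of them dark, run from the start to beyond the end of the gene while heart has 1 pale peak.

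TBX1 and TBX4 had no consensus peak in heart or in muscle. TBX1 had 7 peaks in newborn liver, 2 in lung, 1 each in kidney and spleen, 4 in suckling liver and 1 in adult liver. Its spleen peak (chr14:51285025-51285415, summit at −4.19 kb, 19.8 and 39.1, IDR 0.0129) was in no other list, and it was the only one of the 11 newborn TBX1 peaks with an IDR of 0.05 or lower. TBX4 had 4 peaks in kidney, 2 in lung, 1 in newborn liver and 0 in spleen. The lung peaks were an intronic one 4.48 kb downstream of the start (chr12:36825590-36826254, 5.97 and 28.7, IDR 0.225) and one with its summit at −4.01 kb (chr12:36834168-36835555, 4.05 and 20.6, IDR 0.745) that also lay at LOC106505461.

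The TBX4 peaks of liver were not the same in the merged lists of the 3 stages, a difference that was not tested. The intronic region chr12:36803989-36804519 was in no newborn list, had −log10 p of 8.47 and 13.7 in suckling liver (IDR 0.0446), at percentiles 54.4 and 57.6, and 94.8 and 73.1 in adult liver (IDR 0.00391), at percentiles 81.2 and 75.0. The lung region at 4.48 kb was likewise absent from newborn liver, present in suckling liver (6.83 and 22.0, at percentiles 43.0 and 72.7, IDR 0.319) and in adult liver (60.5 and 54.7, at percentiles 73.9 and 68.8, IDR 0.00391). Within its own list it ranked higher in adult liver in replicate 1 and in suckling liver in replicate 2. An adult liver peak without overlap in the other liver stages was listed at 2 of the 8 genes, TBX3 and TBX4, against 41.5% of PCGs. The one at TBX3 (chr14:37579934-37580189, summit at −2.68 kb, 15.5 and 25.6, IDR 0.0198) was in no other list of any kind. A newborn liver peak without overlap at later stages was listed at 3 genes, TBX1, TBX2 and TBX15, against 44.7% of PCGs. Promoter peaks were listed for 7 genes in suckling liver (background 75%) and for 4 in adult liver (background 69.8%), where TBX1, TBX4, TBX5 and TBX15 had none. The shares of all peaks at the 8 loci were 2.12 per 10000 in suckling liver (1.48 to 3.02) and 1.74 in adult liver (1.12 to 2.72), against 2.42 in newborn liver (1.68 to 3.47).

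The genes that act with TBX5 and TBX20 were listed with them. All 10 cardiac partner factors had a promoter peak in heart (68% of all PCGs), among them NKX2-5 (chr16:51085719-51086353, 30.9 and 37.9, IDR 0.00747) and MEF2C (chr2:96220165-96220962, 38.6 and 36.4, IDR 0.00582), and 8 had a heart-only peak at their locus (background 23.9%). A peak of newborn liver alone was listed at 9 of the 10 (background 53.9%) and of kidney alone at 6 (background 54.9%). GATA4, GATA5 and MEF2C had a heart-only promoter peak (background 1.74%), and 3 of the 10 had a promoter peak of newborn liver alone (background 6.53%). The stronger of the 2 at GATA4 (chr14:14881837-14882143) had 8.196 and 11.98 (IDR 0.214). The number with a promoter peak was 8 in spleen (background 68.9%), 7 in newborn liver (73.7%), 6 in lung (70.6%), 6 in kidney (75.2%) and 4 in muscle (61.5%). Of 8 genes known as targets of T-box factors, 6 had a heart promoter peak (background 68%) and 6 a heart-only peak at the locus (background 23.9%), which was the same peak for the neighbours NPPA and NPPB. Peaks of kidney alone were listed at 5 of these 8 genes (background 54.9%) and of newborn liver alone at 5 (background 53.9%). NPPA, which encodes the atrial natriuretic peptide, had a heart-only promoter peak (chr6:71921056-71921951, 16.2 and 7.85, IDR 0.381). FGF10, a growth factor of limb and lung buds, had no promoter peak in heart. HCN4, the pacemaker channel, had 4 heart-only peaks, the strongest (chr7:60003254-60003991) with 16.3 and 25.2 (IDR 0.0384).

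Of 8 other T-box genes that matched the annotation, promoter peaks were listed in heart for 3 (background 68%), EOMES, TBX6 and MGA, and none was heart-only, while TBR1, TBX10, TBX19, TBX21 and TBX22 had none there. MGA had 2 heart-only peaks elsewhere at its locus, and TBX22 had no peak in any list.

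The labels of the tissues were checked against marker genes. Promoter peaks were listed for all 9 heart markers in heart, 9 of 9 muscle markers in muscle, 9 of 10 lung markers in lung, 7 of 9 kidney markers in kidney, 10 of 10 spleen markers in spleen and 9 of 10 liver markers in newborn liver. Over all PCGs such peaks were listed for 68% in heart, 61.5% in muscle, 70.6% in lung, 75.2% in kidney, 68.9% in spleen and 73.7% in newborn liver. The 7 of 9 in kidney is near its background. In heart they were listed for 2 of 9 muscle markers (ACTA1 and CKM, which heart muscle also uses), 2 of 10 lung markers, 1 of 9 kidney markers, 2 of 10 spleen markers, 2 of 10 liver markers and 1 of 4 markers of red cell precursors. Heart markers had promoter peaks for 5 of 9 in lung, 6 in kidney, 3 in muscle, 3 in spleen and 2 in newborn liver. The part of other cell types in the T-box peaks was not tested.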

How the data were processed

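Groups were taken from the labels. Per the study's methods the authors aligned paired-end reads to Sscrofa11.1 with Bowtie2, filtered them with SAMtools (version 1.3.1 in the submitters' processing notes), called peaks in each library with MACS2 and merged the 2 replicates of a group by their IDR. The deposited lists give each peak a −log10 p per replicate, and their score column was deposited by the authors as a rescaled IDR (540 means 0.05, and 830 means 0.01). The lists were not filtered on IDR. They hold no counts of reads, and the read totals that the study gives for each library were not used here, so no value was scaled by depth. A missing peak is one that was not called. Columns for signal and q-value hold a constant and were not used.

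Peaks and genes were intersected in Python 3.11.15 with pandas 2.3.3 and NumPy 2.4.6, and overlap was checked on simulated data. Genes came from RefSeq on chromosomes 1 to 18, X and Y. Positions are counted from 1. Intervals are 95%, by Wilson's method for shares and on the log scale for ratios, and cover counting error only. Backgrounds count all 19560 PCGs under the same rule. No significance test was made. The 8 genes, the gene lists (from general knowledge) and the rules were chosen with earlier results of these data known. Named for each gene were its strongest promoter, locus and heart-only peaks, list genes whose heart promoter peak was heart-only or missing, and, for TBX5 and TBX20, genes with similar shares over the lists. Other peaks, such as those of TBX15 in muscle and of TBX4 in liver, were named after their values were seen. MYH6, MYH3, PAX8, MSLN and TBXT did not match a gene record by name. The values of 1 gene in the list of T-box targets are not reported here.

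Alternatives were IDR limits of 0.05 and 0.01, lists of equal length, ranking by a single replicate, other flanks (none, 50 kb), a 50% overlap, a promoter of 1 kb upstream and 100 bp downstream, and 1 start site per gene.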

Additional observations from a re-analysis of the deposited data

How the results depend on the processing

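No paired analysis was possible because each group is deposited as 1 merged list and no result comes from a test. Strength limits the heart results most. When all lists were limited to an IDR of at most 0.05, 1 heart peak was left at the 8 loci, which gave 0.689 per 10000 peaks, 0 heart-only peaks, 1 gene with a promoter peak and ratios to muscle of 0.118, to kidney of 0.444 and to spleen of 0.376, so that the order of heart and spleen turned. At 0.01 the values were 1.38 per 10000, 0 heart-only peaks, 1 gene and ratios to muscle of 0.183 and to spleen of 1.597, from 1 peak in both heart and spleen. With lists cut to the 57126 strongest peaks, the ratio to kidney was 2.50 and to liver 3.33. Ranking these by a single replicate gave shares of 3.68 to 3.85, 12 to 13 heart-only peaks, 4 to 5 genes with a promoter peak and ratios of 1.17 to 1.69 (lung), 0.677 to 0.710 (muscle), 2.33 to 2.75 (kidney), 2.2 to 2.62 (spleen) and 3.67 to 4.2 (liver). Without flanks the share was 2.47, with 6 heart-only peaks and a ratio to liver of 3.29, and with 50 kb flanks the share was 7.405 with 20 heart-only peaks. Heart had the largest share at 4 genes, and at 1 under either IDR limit, 2 in equal lists, 2 to 3 when ranked by a single replicate and 3 to 4 with other flanks, a count recomputed after seeing the data. Under the IDR limits that gene was TBX3, which had 1 peak in every newborn list. In all, 40 values of these results stayed within their intervals or within 1.5 times the reported count. Another 23 moved beyond these bounds, and 1, the ratio of heart to spleen at an IDR of 0.05 or lower, reversed. Chosen after seeing the data, the same limits left 8 muscle-only TBX15 peaks at an IDR of 0.05 and 6 at 0.01, and 0 heart-only TBX5 peaks at either, against 7 to 8 in equal lists. In whole lists the counts were 21 and 5. Every list was cut under these settings, so a peak can become muscle-only or heart-only when an overlapping peak of another list drops out. In whole lists 7 muscle-only TBX15 peaks had an IDR of 0.05 or lower. All TBX5 heart peaks fell from 11 to 9 in equal lists.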

Other observations

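Between the TBX3 and TBX5 loci lie 155 kb (chr14:37606768-37762204) without a listed gene of the group. Lung had 9 peaks there, newborn liver 8, heart 5 and kidney 3, whereas muscle and spleen had 0. The strongest heart-only peak of the stretch (chr14:37732019-37732560) had 17.3 and 19.9 as its −log10 p in the replicates. Its IDR of 0.0357 was lower than that of any heart-only peak at the 8 loci themselves. In newborn liver a peak without overlap in other newborn tissues (chr14:37700317-37700721) had 158 and 56.1 (IDR 0.00786). The 28.3 kb between TBX4 and TBX2 held no peak in any newborn list and 1 in suckling liver.

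Genes were also compared with TBX5 by their shares of the 8 lists, that is, peaks at the locus divided by list length. The most alike were SEMA5A (Pearson's r = 0.993), BCL9 (0.980) and CDH18 (0.977), among 8911 PCGs with at least as many peaks in all lists together. For TBX20 they were HRH1 (0.986), ADCY5 (0.978) and CHRM2 (0.974) among 9664. SEMA5A had 38 heart, 29 kidney and 19 lung peaks, and CHRM2 had 15 heart, 8 kidney and 3 lung peaks. These values are descriptions over 8 lists, of which 3 are liver, and the counts given here are not divided by list length.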
